A study of Mus musculus with 9 samples.

Results

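The Hox genes of the mouse, taken as every gene of the count table named Hox with a cluster letter from a to d and a number, were followed through 5 IRE1KO and 4 WT libraries of cultured skull cells. By this rule they were 39 of 25860 genes in the table, and 38 of the 39 are described: 10 in the Hoxa cluster, 10 in Hoxb, 9 in Hoxc and 9 in Hoxd. The cells were calvarial Osx1-Cre cells, sorted by flow cytometry from the skull roof of mouse pups 2 to 4 days old, cultured with 10% serum and harvested at 90% confluence. Each library held RNA of 3 to 5 pooled pups, which the submitters call 1 biological replicate. Osx1-Cre places the Cre recombinase under control of the osterix (Sp7) promoter, which is active in osteoblasts and their precursors, and the cells of both groups are described as Osx1-Cre cells. In the IRE1KO group IRE1, the product of Ern1 and a sensor of unfolded proteins in the endoplasmic reticulum, is named as knocked out, while the WT group is given as WT; the sources used here do not give the targeted allele, the strain or the litters.

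Hox genes encode homeodomain transcription factors that give cells a position along the head-to-tail axis and along the limbs. They lie in 4 clusters in which the order of the genes follows the order of their expression: genes at the 3′ end, with low numbers, act in the hindbrain and pharyngeal arches, and genes at the 5′ end, with high numbers, act in the lower trunk, the limb tips and the tail. Genes with the same number in different clusters are called a paralog group and often act together. Most bones of the skull roof form from cranial neural crest and head mesoderm that lie in front of the Hox domain, so the calvaria is commonly described as Hox-negative, in contrast to the long bones and vertebrae.

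Depth was similar in all libraries, at 18784636 to 22028075 counts, and the floor of 3 counts used here equals 0.136 to 0.160 CPM, a count scaled by its library's total. The labelled cell type was checked on osteoblast-lineage markers: Runx2 was at 67.5 ± 2.64 CPM in the 5 IRE1KO libraries and 67.4 ± 5.92 CPM in the 4 WT libraries (SD), and the collagen gene Col1a1 took 23140 ± 1051 CPM of IRE1KO libraries and 20528 ± 7147 CPM of WT libraries, while Bglap (osteocalcin) was near 0. Sp7 averaged 18.5 ± 2.30 CPM across IRE1KO and 19.1 ± 5.17 CPM across WT, and Alpl (alkaline phosphatase) 18.6 ± 3.48 CPM across IRE1KO and 22.2 ± 2.56 CPM across WT (SD). Ibsp, the bone sialoprotein of maturing osteoblasts, was at 0.543 ± 0.388 CPM in the 5 IRE1KO libraries and 2.31 ± 1.30 CPM in the 4 WT libraries (SD; log2 fold change -2.06 ± 0.58 SE, adjusted p = 0.152, edgeR), with overlapping groups. The total count of Ern1, 49.1 to 55.4 CPM in IRE1KO and 41.5 to 53.7 CPM in WT, does not show whether some of its exons are missing and so does not check the genotype. WT library 4 stood apart on the first principal component, at 56.7 against -23.4 to 15.1 for the other libraries. WT libraries also differed from each other more than IRE1KO libraries did, with a chi-square per gene of 15.3 to 112.4 between pairs of WT libraries and 1.91 to 10.0 between pairs of IRE1KO libraries. The value of 1.91 was that of IRE1KO libraries 3 and 5, and the other IRE1KO pairs were at 4.03 to 10.0. The main fit treats all libraries as separate replicates. Since these are bulk RNA samples, fewer cells that express a gene and less of its RNA per cell cannot be told apart.

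Hox RNA was present at a low level and from few genes. A read in every one of the 9 libraries was found for 12 of the 38 members described, 11 had reads in some libraries, and 15 had no read in any. The 12 were Hoxa2, Hoxa3 and Hoxa5 of the Hoxa cluster, Hoxb2, Hoxb3, Hoxb4 and Hoxb9 of Hoxb, Hoxc13 alone of Hoxc, and Hoxd3, Hoxd4, Hoxd8 and Hoxd9 of Hoxd. These 38 genes together had 5578 of 179872177 reads, or 31.0 CPM, and the 12 accounted for 96.9% of these. With at least 3 reads asked for in every library the 12 became 11, since Hoxa5 had 1 read in IRE1KO library 2, and with at least 10 reads they became 9.

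**Figure D1:**
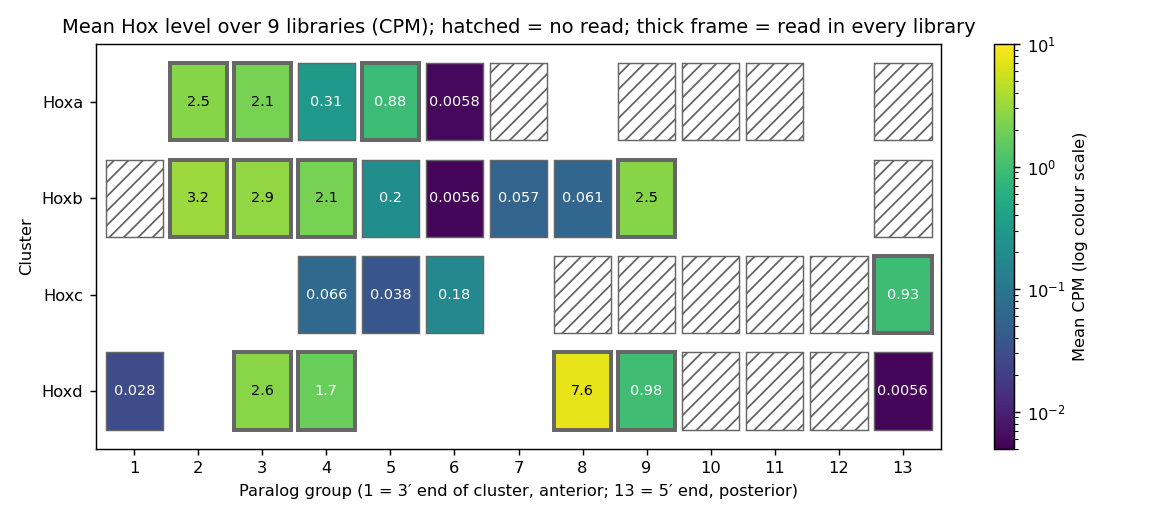
Mean level of each Hox gene over the 9 libraries in CPM (colour on a log scale, value printed in the box), with the 4 clusters in rows and the paralog groups 1 to 13 in columns. Thick frames mark the 12 genes read in every library, hatched boxes the 15 with no read, and blank places have no gene described; frames are crowded at paralog groups 2 to 5, and groups 10, 11 and 12 are hatched throughout.

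Read by paralog group, the genes found in every library were mostly anterior ones. Groups 2 and 3 were complete, with 2 of 2 and 3 of 3 members: Hoxa2, which sets the identity of the second pharyngeal arch, Hoxb2, which acts in the hindbrain, and Hoxa3, Hoxb3 and Hoxd3, which act in the more posterior arches and the neck. Group 4 had 2 of 4 members in every library (Hoxb4 and Hoxd4) and reads of Hoxa4 and Hoxc4 in some. Hoxd1 had 5 reads, all in IRE1KO library 2, and Hoxb1, which acts in the hindbrain, had none.

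The posterior parts of the clusters were close to silent, with 4 exceptions, of which Hoxd8 and Hoxd9 are neighbours. Groups 10, 11 and 12, which pattern the lumbar and sacral spine and the limb bones, had no read from any of their 3, 3 and 2 members, which allows a level of up to 0.0167 CPM for each gene over all libraries, counting error only. Against this stood Hoxd8, Hoxd9, Hoxb9 and Hoxc13, the only genes of groups 7 to 13 read in every library. Hoxc13, known for its role in hair and nail, was separated from the other Hoxc genes with reads (Hoxc4, Hoxc5 and Hoxc6, at the other end of the cluster) by 5 genes with none, Hoxc8 to Hoxc12. Hoxb9 likewise stood beyond Hoxb5, Hoxb6, Hoxb7 and Hoxb8, which had 36, 1, 10 and 11 reads in all libraries together, against 446 for Hoxb9. In the Hoxd cluster Hoxd9 had 177 reads and its neighbour Hoxd10 had none.

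The genes described lie on chromosome 6 from 52162417 to 52260880 (Hoxa), chromosome 11 from 96194316 to 96368256 (Hoxb), chromosome 15 from 102921103 to 103036852 (Hoxc) and chromosome 2 from 74668310 to 74765142 (Hoxd) in GRCm38, by GENCODE M21. The Hoxb cluster shares its chromosome with Ern1, at a distance of 10.03 to 10.2 Mb. Promoter sequences from RefSeq (GRCm38.p6, 250 bases before to 50 after a gene's start) were on hand for 22 of the 38 genes, as 24 promoters. Those of Hoxd8, Hoxd9 and Hoxd10 are shown because the step from the most abundant Hox gene to one with no read falls within these 3 neighbours; all are on the plus strand, at chr2:74704365-74704664, chr2:74697513-74697812 and chr2:74691641-74691940, and capitals mark each CG dinucleotide, the site of DNA methylation.
Hoxd8: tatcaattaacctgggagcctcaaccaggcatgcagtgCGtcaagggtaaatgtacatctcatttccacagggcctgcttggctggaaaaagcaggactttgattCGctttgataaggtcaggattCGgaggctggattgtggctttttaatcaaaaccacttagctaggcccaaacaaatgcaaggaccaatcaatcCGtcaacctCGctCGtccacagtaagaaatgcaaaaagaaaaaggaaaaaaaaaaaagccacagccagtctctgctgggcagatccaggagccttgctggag
Hoxd9: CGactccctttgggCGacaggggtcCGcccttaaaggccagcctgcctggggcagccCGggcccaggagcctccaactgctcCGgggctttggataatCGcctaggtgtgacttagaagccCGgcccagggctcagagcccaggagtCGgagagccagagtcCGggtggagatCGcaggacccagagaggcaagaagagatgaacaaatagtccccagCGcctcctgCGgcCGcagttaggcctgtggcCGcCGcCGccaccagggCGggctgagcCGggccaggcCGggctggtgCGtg
Hoxd10: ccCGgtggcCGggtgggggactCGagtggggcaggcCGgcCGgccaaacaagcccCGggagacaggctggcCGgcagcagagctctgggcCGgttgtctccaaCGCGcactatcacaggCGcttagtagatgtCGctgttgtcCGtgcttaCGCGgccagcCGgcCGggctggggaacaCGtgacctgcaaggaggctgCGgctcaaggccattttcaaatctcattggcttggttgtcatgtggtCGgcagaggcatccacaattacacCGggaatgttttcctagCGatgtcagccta
The promoter of Hoxd8 held 6 CG dinucleotides, that of Hoxd9 20 and that of Hoxd10 22, so the gene with the most reads had the fewest of the 3. Over the 24 Hox promoters the median was 14.5, against 7 over all 32851 promoters of the reference. It was 17 for the 8 promoters of genes read in every library, 26 for the 5 of genes read in some and 13 for the 11 of genes with no read, so the number of CG dinucleotides did not run in one order with detection.

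The motif TGATTNAT, a form bound by Hox proteins together with a Pbx partner, was searched on both strands and occurred in 2 of the 24 Hox promoters (8.33%), against 3.22% of all promoters. One of these was that of Hoxa2, on the minus strand at chr6:52164782-52165081, shown with the match in capitals; the match lies on the opposite strand to the one printed and starts at base 140.
Hoxa2: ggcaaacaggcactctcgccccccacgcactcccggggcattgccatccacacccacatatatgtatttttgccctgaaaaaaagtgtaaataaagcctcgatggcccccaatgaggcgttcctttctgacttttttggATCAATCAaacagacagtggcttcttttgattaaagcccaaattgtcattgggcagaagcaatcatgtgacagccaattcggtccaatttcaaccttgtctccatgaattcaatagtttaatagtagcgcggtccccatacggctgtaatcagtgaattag
The other was 1 of the 2 promoters of Hoxd11, a gene with no read. TATAAA, the core of the TATA box, occurred on either strand in 4 of 24 Hox promoters (16.7%) and in 13.6% of all promoters. These are matches of letters and were not tested for binding.

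Per kilobase of exon, Hoxd8 was the most abundant Hox gene, at 2.79 ± 1.05 CPM per kb (SD over 9 libraries). Hoxa2 followed at 1.41 ± 0.571 CPM per kb. Then came Hoxb9 at 0.971, Hoxb2 at 0.909, Hoxb4 at 0.826, Hoxb3 at 0.676, Hoxd3 at 0.614, Hoxd4 at 0.589, Hoxa5 at 0.467, Hoxd9 at 0.457, Hoxc13 at 0.379 and Hoxa3 at 0.346 CPM per kb. The step from Hoxd8 to Hoxa2 was larger than the SD of both; no other neighbours in this order differed beyond their spread.

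The study compared IRE1KO with WT cells to see what changes when IRE1 is lost in Osx1-Cre cells. No Hox gene passed the test. Among the 12 that could be tested, the levels in IRE1KO and WT overlapped for every gene, and the fitted log2 fold changes (IRE1KO over WT) ran from -1.33 for Hoxa5 to 0.96 for Hoxd9. The 4 tested Hoxd genes all had fitted values above 0, and the 4 lowest values were those of Hoxa5, Hoxa3, Hoxb4 and Hoxb9.

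**Figure D2:**
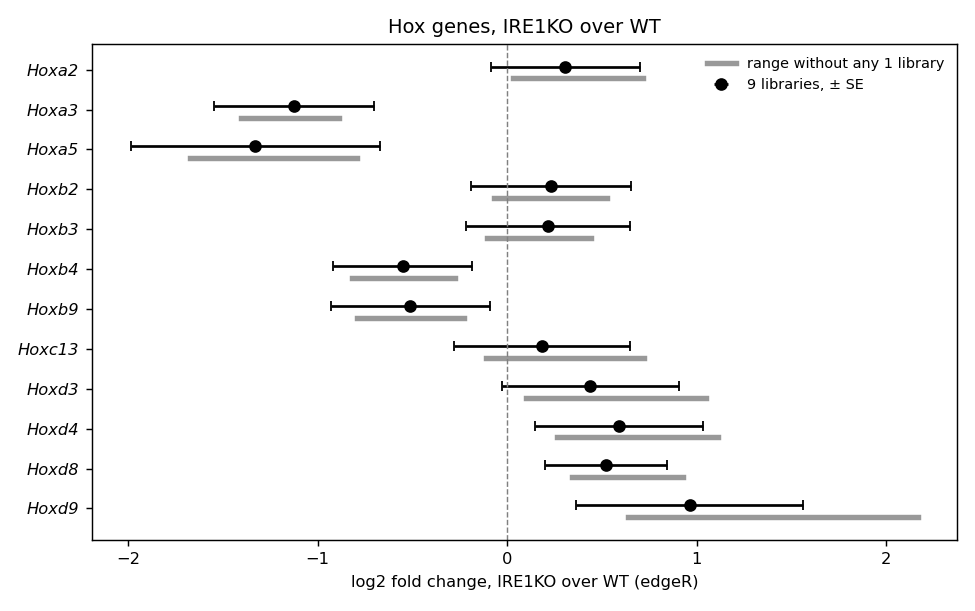
Log2 fold change of the 12 tested Hox genes, IRE1KO over WT (horizontal axis; points with ± SE from edgeR over 9 libraries), with the range of the same value when any 1 library was left out (grey bar). Hoxa3, Hoxa5, Hoxb4 and Hoxb9 stay below 0 in every such fit, and Hoxa2 and the 4 Hoxd genes stay above 0. The bars of Hoxb2, Hoxb3 and Hoxc13 cross 0, and the bar of Hoxd9 reaches 2.17.

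In numbers, 0 of 12 tested Hox genes reached an adjusted p under 0.05 (edgeR, quasi-likelihood, Benjamini-Hochberg over all 13712 tested genes), of which 87 (0.634%) passed, 35 higher and 52 lower in IRE1KO. The smallest adjusted p of a Hox gene in edgeR was 0.233, for Hoxa3. At an unadjusted p under 0.05 there was 1 of 12, Hoxa3, which was lower in IRE1KO, against 16.5% of all tested genes, 7.14% higher and 9.36% lower. The groups did not overlap for 0 of 12, against 6.6% of all. Fitted changes were above 0 for 8 and below 0 for 4 of the 12, against 48.4% above 0 over all genes, and their median was 0.22, against -0.0050 for all genes. The other 26 of the 38 were too low to test. The count of 87 itself moved between 2 and 1192 when any 1 library was left out, with 1192 of 13820 tested genes without WT library 1. The only Hox gene to pass in any fit was Hoxd9, without WT library 1, as 1 of 12 tested there.

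Among the Hoxd genes, Hoxd8 had 8.19, 12.8, 6.71, 8.22 and 8.10 CPM in IRE1KO libraries 1 to 5, against 10.6, 4.07, 3.84 and 6.27 CPM in WT libraries 1 to 4. IRE1KO library 2 was the highest of all and WT library 1 lay above the other 4 IRE1KO libraries, so the groups overlapped. The means were 8.81 ± 2.34 CPM in the 5 IRE1KO libraries and 6.20 ± 3.14 CPM in the 4 WT libraries (SD; log2 fold change 0.52 ± 0.32 SE, adjusted p = 0.452, edgeR). Without 1 library the log2 fold change of Hoxd8 ranged from 0.34 to 0.93.

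Hoxd9, which with Hoxa9 patterns the upper limb, had 1.16, 2.02, 1.06, 0.953 and 1.04 CPM in IRE1KO libraries 1 to 5, against 1.72, 0.156, 0.415 and 0.261 CPM in WT libraries 1 to 4. In reads these were 24, 40, 20, 21 and 22 in IRE1KO, against 34, 3, 8 and 5 in WT. Thus 3 WT libraries lay below every IRE1KO library, while WT library 1 lay above 4 of the 5. The means were 1.25 ± 0.438 CPM in the 5 IRE1KO libraries and 0.638 ± 0.728 CPM in the 4 WT libraries (SD; log2 fold change 0.96 ± 0.60 SE, adjusted p = 0.451, edgeR). Without WT library 1 the log2 fold change of Hoxd9 was 2.17 ± 0.41 SE and its adjusted p in edgeR was 0.0196. That fit also called far more of all tested genes than the main one. Over the 9 fits that each left out 1 library Hoxd9 passed in that one alone, and its log2 fold change ranged from 0.64 to 2.17.

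Hoxd3 and Hoxd4, which shape the first neck vertebrae, followed the same libraries. Hoxd3 had 2.22, 5.35, 2.61, 2.13 and 2.23 CPM in IRE1KO libraries 1 to 5, against 4.35, 1.41, 0.933 and 1.93 CPM in WT libraries 1 to 4, and Hoxd4 had 1.73, 3.69, 1.70, 1.27 and 1.80 CPM in IRE1KO libraries 1 to 5, against 2.58, 0.990, 0.622 and 1.25 CPM in WT libraries 1 to 4. IRE1KO library 2 and WT library 1 were the highest of their groups for both, as they were for Hoxd8 and Hoxd9. The differences were small against the spread for Hoxd3 (log2 fold change 0.44 ± 0.47 SE, adjusted p = 0.671, edgeR) and for Hoxd4 (log2 fold change 0.59 ± 0.44 SE, adjusted p = 0.539, edgeR). The log2 fold change of Hoxd3 was 0.097 without IRE1KO library 2 and 1.05 without WT library 1, and that of Hoxd4 was 0.26 without IRE1KO library 2 and 1.11 without WT library 1. Their counts may not be fully separate: the exons of the 2 genes share 388 bases in GENCODE M21, where Hoxd4 was found by symbol. Both overlap the opposite-strand transcript Hoxd3os1 over 347 bases. How reads in shared bases were counted is not known.

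**Figure D3:**
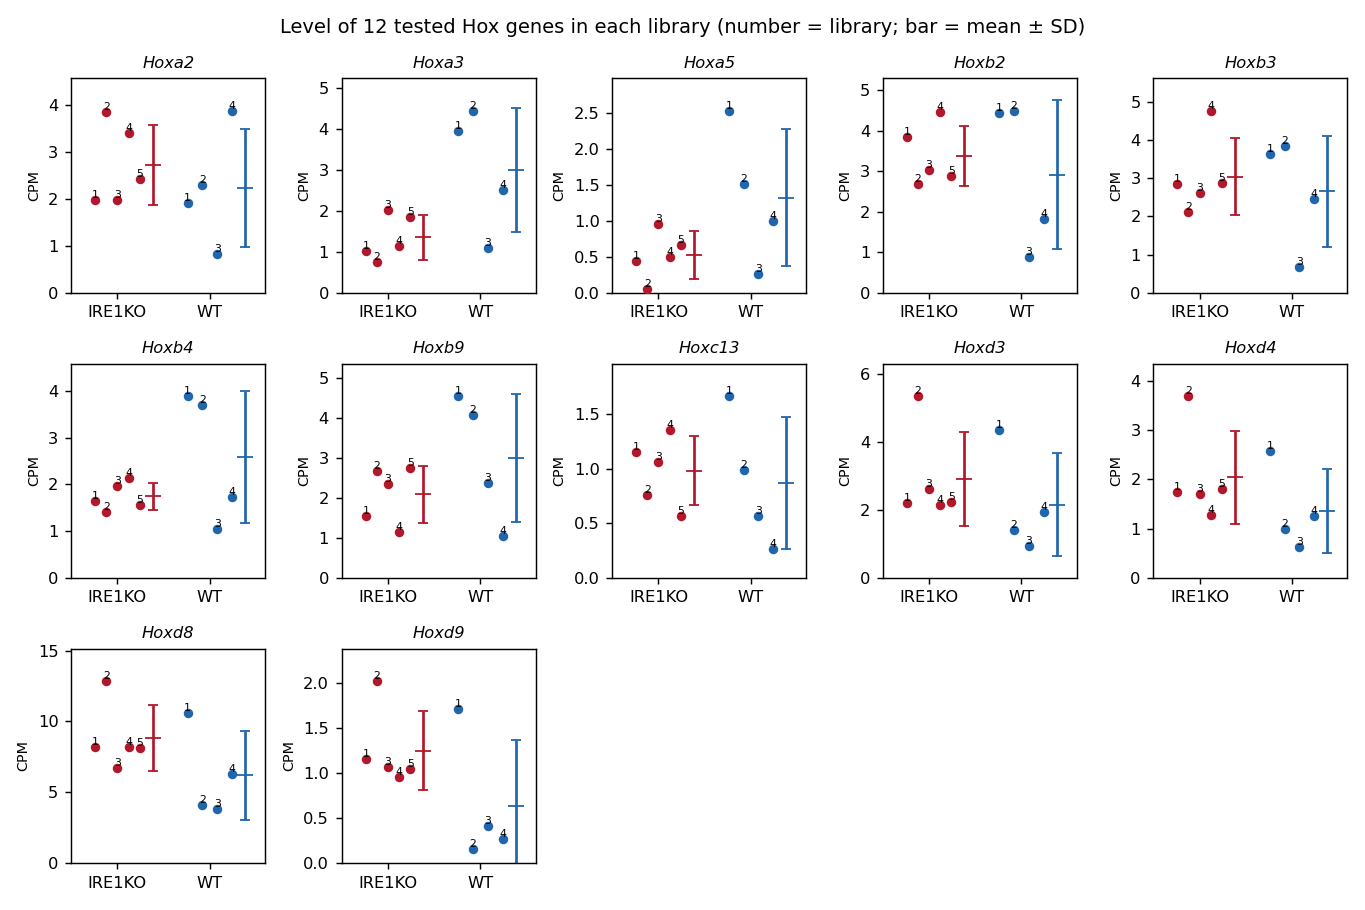
Level of the 12 tested Hox genes in each library (vertical axes in CPM, each starting at 0), IRE1KO in red on the left and WT in blue on the right, each point numbered by its library, with mean ± SD beside the points (n = 5 and n = 4). The groups overlap in every panel, and IRE1KO library 2 is the highest red point in the 4 Hoxd panels. On these axes the WT points are spread more widely than the IRE1KO points in 11 of the 12, Hoxd4 being the exception.

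Among the Hoxa genes, the 2 with the lowest fitted values were Hoxa3, needed for the thymus and parathyroid, and Hoxa5, needed for the lung and the neck vertebrae. Hoxa3 had 1.01, 0.758, 2.02, 1.13 and 1.85 CPM in IRE1KO libraries 1 to 5, against 3.94, 4.43, 1.09 and 2.51 CPM in WT libraries 1 to 4. Only WT library 3 lay within the range of the IRE1KO libraries. The means were 1.35 ± 0.550 CPM in the 5 IRE1KO libraries and 2.99 ± 1.51 CPM in the 4 WT libraries (SD), with an unadjusted p of 0.0248 in edgeR (log2 fold change -1.13 ± 0.42 SE, adjusted p = 0.233, edgeR). Without 1 library its log2 fold change ranged from -1.41 to -0.89 and its adjusted p in edgeR from 0.189 to 0.409.

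Hoxa5 had 0.434, 0.0505, 0.958, 0.499 and 0.663 CPM in IRE1KO libraries 1 to 5, against 2.53, 1.51, 0.259 and 0.993 CPM in WT libraries 1 to 4. IRE1KO library 2, with 1 read, was the lowest, and WT library 3, with 5 reads, was again within the IRE1KO range. The means were 0.521 ± 0.332 CPM in the 5 IRE1KO libraries and 1.32 ± 0.953 CPM in the 4 WT libraries (SD; log2 fold change -1.33 ± 0.66 SE, adjusted p = 0.343, edgeR).

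Hoxa2 had 1.98, 3.84, 1.97, 3.40 and 2.42 CPM in IRE1KO libraries 1 to 5, against 1.92, 2.29, 0.830 and 3.87 CPM in WT libraries 1 to 4 (log2 fold change 0.31 ± 0.40 SE, adjusted p = 0.732, edgeR). For Hoxa2 the highest and the lowest values of all were both in WT, in libraries 4 and 3. The exons of Hoxa3 overlap the opposite-strand Hoxaas2 over 8.4% of their length, and the libraries were directional but the sources used here do not say whether the counting used the strand.

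The Hoxb genes had fitted values on both sides of 0. Hoxb2 had 3.85, 2.68, 3.03, 4.45 and 2.89 CPM in IRE1KO libraries 1 to 5, against 4.45, 4.48, 0.881 and 1.83 CPM in WT libraries 1 to 4 (log2 fold change 0.23 ± 0.42 SE, adjusted p = 0.818, edgeR). Hoxb3 had 2.84, 2.12, 2.61, 4.77 and 2.89 CPM in IRE1KO libraries 1 to 5, against 3.64, 3.86, 0.674 and 2.46 CPM in WT libraries 1 to 4 (log2 fold change 0.22 ± 0.43 SE, adjusted p = 0.839, edgeR). In both genes WT library 3 was the lowest library and WT library 2 was the highest of WT. The opposite-strand transcript Hoxb3os covers 52.9% of the exon length of Hoxb3 and 27.3% of that of Hoxb2.

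Hoxb4, a gene known from blood stem cells and the neck vertebrae, had 1.64, 1.41, 1.97, 2.13 and 1.56 CPM in IRE1KO libraries 1 to 5, against 3.89, 3.70, 1.04 and 1.72 CPM in WT libraries 1 to 4 (log2 fold change -0.55 ± 0.37 SE, adjusted p = 0.484, edgeR). WT libraries 1 and 2 were above all others, and WT libraries 3 and 4 were within or below the IRE1KO range. Hoxb9, a gene of the thoracic region, had 1.54, 2.68, 2.34, 1.13 and 2.75 CPM in IRE1KO libraries 1 to 5, against 4.55, 4.07, 2.39 and 1.05 CPM in WT libraries 1 to 4 (log2 fold change -0.51 ± 0.42 SE, adjusted p = 0.574, edgeR). Here WT library 4 was the lowest of all 9 and WT library 1 the highest.

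Hoxc13 had 1.16, 0.758, 1.06, 1.36 and 0.568 CPM in IRE1KO libraries 1 to 5, against 1.67, 0.990, 0.570 and 0.261 CPM in WT libraries 1 to 4 (log2 fold change 0.18 ± 0.47 SE, adjusted p = 0.879, edgeR), with the highest and the lowest value both in WT. The summed level of 6 epidermal markers (Krt5, Krt14, Krt15, Trp63, Epcam and Cdh1, none at 0 in every library) was 0.799 to 1.56 CPM in IRE1KO and 0.960 to 3.50 CPM in WT. The highest epidermal sum was in WT library 4, the library with the least Hoxc13, and the part of these cells in the Hoxc13 level was not tested.

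Of the members below the filter, Hoxa4 and Hoxb5 had the most reads. Hoxa4 had 7, 0, 6, 6 and 2 reads in IRE1KO libraries 1 to 5, against 12, 13, 3 and 6 in WT libraries 1 to 4. Hoxb5 had 1, 2, 1, 0 and 2 reads in IRE1KO libraries, against 18, 7, 1 and 4 in WT libraries. In Hoxb5 25 of the 30 WT reads came from WT libraries 1 and 2. With no filter on low counts the log2 fold change of Hoxb5 was -2.58 ± 0.83 SE, with an adjusted p of 0.217 in edgeR. Hoxc6 had 0 to 6 reads in IRE1KO libraries and 2 to 9 in WT libraries, and Hoxc4 0 to 3 in IRE1KO libraries and 0 to 2 in WT libraries. The others had fewer than 12 reads in all. Hoxb7, Hoxb8 and Hoxc5 had at most 6 reads in any library. Hoxa6, Hoxb6 and Hoxd13 had 1 read each, in 1 WT library. Just above and just below the filter stood Hoxa5 with 156 reads and Hoxa4 with 55.

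Libraries of the same genotype differed widely in Hox level. Across the 12 tested genes the highest library was 1.51 to 19.0 times the lowest within IRE1KO, with a median of 2.32, and 2.77 to 11.0 times within WT, with a median of 4.66. By this ratio WT was wider for 11 of 12, the exception being Hoxa5, whose lowest IRE1KO library had 1 read. By SD in CPM the exception was Hoxd4, at 0.945 in IRE1KO and 0.851 in WT. Hoxa5 was then wider in WT, at 0.953 against 0.332 in IRE1KO. WT library 1 was the highest WT library for 8 of the 12 genes and WT library 3 the lowest for 9 of 12. IRE1KO library 2 was at both ends: it was the highest IRE1KO library for Hoxa2, Hoxd3, Hoxd4, Hoxd8 and Hoxd9 and the lowest for Hoxa3, Hoxa5, Hoxb2, Hoxb3 and Hoxb4. IRE1KO library 1 was neither the highest nor the lowest for any.

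Summed over the 38 genes, Hox RNA was at 31.5 ± 4.38 CPM in the 5 IRE1KO libraries and 30.3 ± 14.4 CPM in the 4 WT libraries (SD), with ranges of 28.3 to 38.9 CPM in IRE1KO and 13.9 to 47.9 CPM in WT. The Hoxd cluster gave 15.1 ± 5.10 CPM in IRE1KO and 10.4 ± 6.19 CPM in WT, Hoxb gave 10.4 ± 1.26 CPM in IRE1KO and 11.7 ± 6.53 CPM in WT, the Hoxa genes described 4.80 ± 0.640 CPM in IRE1KO and 6.99 ± 3.16 CPM across WT, and Hoxc 1.27 ± 0.178 CPM in IRE1KO and 1.16 ± 0.695 CPM in WT (SD over the same libraries). The WT range enclosed the IRE1KO range for Hoxa, Hoxb and Hoxc and overlapped it for Hoxd. The Hoxd genes made up 47.0%, 62.0%, 42.0%, 39.5% and 44.3% of these Hox reads in IRE1KO libraries 1 to 5, against 40.3%, 19.4%, 41.8% and 38.7% in WT libraries 1 to 4. The share was thus highest in IRE1KO library 2 and lowest in WT library 2, and between 38.7% and 47.0% in the other 7 libraries.

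**Figure D4:**
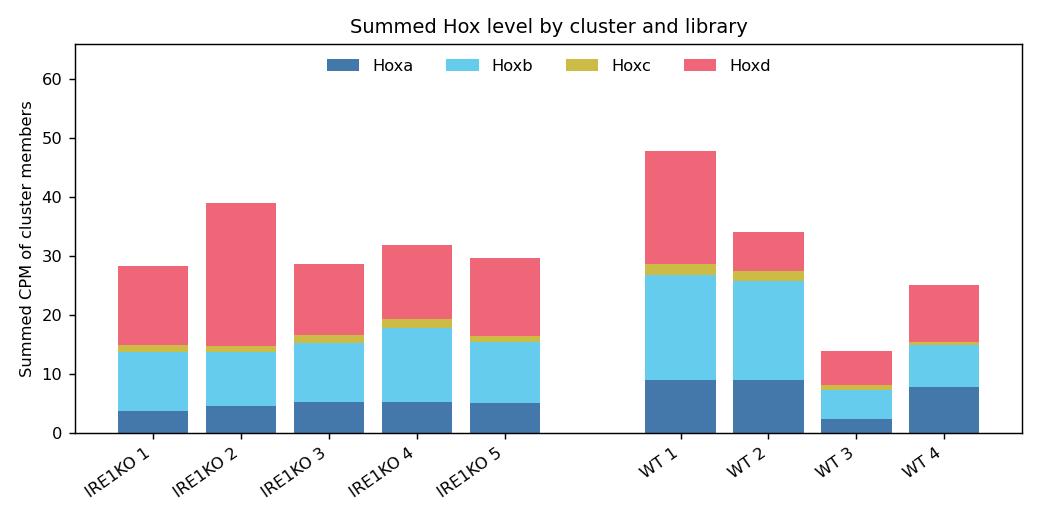
Summed CPM of the Hox genes described, by cluster (stacked colours, axis from 0) in IRE1KO libraries 1 to 5 on the left and WT libraries 1 to 4 on the right. WT runs from 13.9 CPM in library 3 to 47.9 CPM in library 1, enclosing all IRE1KO libraries, and the Hoxd part of IRE1KO library 2 is the tallest single block, at 24.1 CPM.

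The scatter between libraries of a group was larger for Hox genes than for most genes of similar abundance. The biological coefficient of variation fitted by edgeR lay above the trend for that abundance in 12 of 12 tested Hox genes, against 21.7% of all tested genes. With no filter on low counts it was 19 of 23, against 24.8% of all. The 12 were at 1.34 to 2.31 times the trend. The largest was that of Hoxa5, 0.659 against a trend of 0.285, followed by Hoxd9, 0.575 against 0.284. The count was 10 without WT library 3, 11 without WT library 1 and 12 without any other single library, in each of these fits over 12 tested Hox genes.

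Markers of other cells differed between the same libraries. The chondrocyte sum (Sox9, Col2a1, Acan, Matn1, Col9a1 and Comp, none at 0 throughout) was 698 CPM in IRE1KO library 2 and 1253 to 1394 CPM in the other IRE1KO libraries, against 1355 to 1461 CPM in WT. The glial sum (Sox10, S100b, Cdh19 and Foxd3, none at 0 throughout) was 8.58 to 12.3 CPM in IRE1KO and 13.3 to 41.8 CPM in WT. IRE1KO library 2 was the highest of IRE1KO and WT library 1, at 13.3 CPM, the lowest of WT. Sox10, S100b and Cdh19 were each lower in every IRE1KO library than in any WT library. The groups did not overlap for 6.6% of all tested genes. None of these glial genes passed (adjusted p 0.060 to 0.077, edgeR). Skeletal muscle markers (6, Myf5 at 0 in every library) summed to 27.5 to 49.1 CPM in IRE1KO and 23.8 to 64.2 CPM in WT, with IRE1KO library 2 the lowest of IRE1KO. Of these only Des and Chrna1 were high enough to test, and Myod1, Myf5, Myog and Pax7 were not. Endothelial markers (6, none at 0 throughout) summed to 9.32 to 12.6 CPM in IRE1KO and 10.2 to 29.4 CPM across WT, and macrophage and blood cell markers (6, none at 0 throughout) to 119.7 to 271 CPM in IRE1KO and 69.6 to 252 CPM in WT. The endothelial gene Pecam1 was the only marker to pass (log2 fold change -1.99 ± 0.36 SE, adjusted p = 0.0497, edgeR). Of all tested genes 0.379% passed as lower in IRE1KO. Meningeal markers (6, Slc6a13 at 0 in every library) summed to 96.9 to 128 CPM in IRE1KO and 92.4 to 121 CPM in WT. Most of this sum was Zic1 (mean 68.9 CPM over 9 libraries) and Foxc1 (36.8 CPM), both also counted below as cranial positional genes. Ptgds, Slc6a13 and Cldn11 were too low to test, so the sum says little of meningeal cells. The part of these other cell types in the Hox levels was not tested.

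The partners of Hox proteins and the regulators of Hox chromatin were abundant. The TALE homeodomain proteins of the Pbx, Meis and Pknox families bind DNA together with Hox proteins: 8 of 8 were tested, 5 of them were above Hoxd8 per kilobase of exon, and 0 passed. Pknox2 had 8.43, 7.32, 8.89, 8.53 and 8.20 CPM in IRE1KO libraries 1 to 5, against 9.04, 11.3, 15.1 and 21.8 CPM in WT libraries 1 to 4, so that every WT library was above every IRE1KO library, at a log2 fold change of -0.77 ± 0.22 SE and an adjusted p of 0.156 in edgeR. Such a lack of overlap was found for 6.6% of all tested genes. Meis2 was at 44.7 ± 3.95 CPM in the 5 IRE1KO libraries and 49.7 ± 8.90 CPM in the 4 WT libraries (SD; log2 fold change -0.13 ± 0.11 SE, adjusted p = 0.602, edgeR). Trithorax and Polycomb proteins keep Hox genes on and off: 25 of 25 were tested, 0 passed, their median log2 fold change was -0.012, and the smallest p-values were those of the Polycomb genes Eed (0.16 ± 0.06 SE, adjusted p = 0.250, edgeR) and Mtf2 (0.15 ± 0.06 SE, adjusted p = 0.276, edgeR).

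Upstream axial factors were mostly low. Of 15 listed (Cdx, Gsx and Pdx1 genes, retinoic acid enzymes and receptors, Gdf11, Egr2 and Gbx2), 7 were tested, 0 passed, 6 of the 7 had fitted values below 0, and Cdx2, Cdx4, Gsx1, Gsx2 and Pdx1 had no read in any library. Egr2, also called Krox20, activates Hoxa2 and Hoxb2 in the hindbrain and also acts in Schwann cells; it had 6.60, 5.25, 5.70, 7.40 and 5.87 CPM in IRE1KO libraries 1 to 5, against 7.83, 11.3, 16.0 and 20.4 CPM in WT libraries 1 to 4, again with no overlap, as for 6.6% of all tested genes (log2 fold change -1.15 ± 0.25 SE, adjusted p = 0.077, edgeR). Aldh1a2, which makes retinoic acid, was at 0.996 ± 0.289 CPM in the 5 IRE1KO libraries and 4.32 ± 4.29 CPM in the 4 WT libraries (SD; log2 fold change -2.08 ± 0.60 SE, adjusted p = 0.159, edgeR). Its highest WT value, 10.6 CPM, was in WT library 4, which also had the highest glial, endothelial and epidermal sums and the lowest skeletal muscle sum. That library also had the highest WT sum of the meningeal markers, a list that holds Aldh1a2 itself. The part of these cells in the Aldh1a2 level was not tested. Leaving out WT library 1 gave Aldh1a2 a log2 fold change of -2.41, and leaving out WT library 4 gave -1.12. Neither Hoxa2 nor Hoxb2 passed the test, as given above. Without WT library 1, Pknox2, Eed, Mtf2, Egr2 and Aldh1a2 passed in edgeR, and over all libraries Pknox2, Egr2 and Aldh1a2 passed in DESeq2. Both fits also called far more of all tested genes than the main fit, in which 0.634% passed.

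Noncoding transcripts of the clusters were followed as well. Of 18 listed, 15 were in the table, 4 were tested and 0 passed, against 0.634% of all tested genes. Of the 15, 7 had no read in any library, among them Hotair and Hottip, which lie at the posterior ends of Hoxc and Hoxa. Mir10a, Mir196a-2 and Mir615, also among the 7, span only 85 to 110 bases. In poly-A libraries their lack of reads does not show that they are silent. Hoxd3os1, listed under its older name 1700109F18Rik, had 0.771, 2.02, 0.692, 1.32 and 1.23 CPM in IRE1KO libraries 1 to 5, against 1.06, 0.313, 0.363 and 0.679 CPM in WT libraries 1 to 4 (log2 fold change 1.01 ± 0.44 SE, adjusted p = 0.296, edgeR). It was highest in IRE1KO library 2 and, within WT, in library 1, like the Hoxd genes around it. Hoxd3os1 shares 347 exon bases with Hoxd3 and with Hoxd4, so its counts may not be separate from theirs. Hotairm1, listed as Gm15051, was at 1.37 ± 0.199 CPM in the 5 IRE1KO libraries and 1.12 ± 0.288 CPM in the 4 WT libraries (SD; log2 fold change 0.31 ± 0.22 SE, adjusted p = 0.513, edgeR).

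Positional genes outside the Hox clusters gave 1 call in each of the 2 lists, both lower in IRE1KO, where 0.379% of all tested genes passed in that direction. Of 24 cranial genes (Otx, Alx, Msx, Dlx, Tfap2, Foxc and others) 22 were tested and Dlx2, a homeobox gene of the pharyngeal arches, fell (log2 fold change -0.77 ± 0.12 SE, adjusted p = 0.044, edgeR), with 7.66, 6.01, 9.05, 7.67 and 8.24 CPM in IRE1KO libraries 1 to 5, against 11.9, 15.0, 15.0 and 11.6 CPM in WT libraries 1 to 4. Of 17 trunk and limb genes (Tbx, Pax, Meox and others) 10 were tested and Meox1, a homeobox gene of the somites, fell (log2 fold change -3.54 ± 0.52 SE, adjusted p = 0.042, edgeR), with 0.289, 0.202, 0.373, 0.726 and 0.189 CPM in IRE1KO libraries 1 to 5, against 1.87, 2.45, 5.29 and 7.58 CPM in WT libraries 1 to 4. Each of the 2 calls held in 2 of the 9 fits without 1 library, those without WT library 1 and without WT library 4, and the adjusted p in edgeR over the 9 fits was 0.0133 to 0.145 for Dlx2 and 0.00616 to 0.131 for Meox1. Hand2, Uncx and Tcf15, genes of the limb and somites, had no read in any library. The median log2 fold change was -0.067 over the tested cranial genes, -0.12 over the trunk and limb genes, -0.19 over the axial factors, 0.029 over the TALE genes and 0.24 over the noncoding transcripts, against -0.0050 over all tested genes.

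Levels per kilobase of exon were set beside these lists. The median of the 12 tested Hox genes was 0.645 CPM per kb of exon, and the highest, Hoxd8, was at 2.79. Of the 24 cranial genes 16 were above Hoxd8, led by Twist1, a regulator of skull sutures, at 29.4 CPM per kb. Among trunk and limb genes 4 of 17 were above it, led by Tbx15, at 23.2 CPM per kb. Over the members read in every library, as all tested Hox genes were, the medians were 6.72 CPM per kb for 25 Trithorax and Polycomb genes, 8.40 for 7 axial factors, 4.57 for 22 cranial genes, 4.11 for 8 TALE genes and 1.96 for 10 trunk and limb genes, all above the Hox median, and 0.269 for 4 noncoding transcripts, below it. Over all listed members, those of few or no reads included, the median of the trunk and limb genes was 0.302 CPM per kb. That of the axial factors was 0.0565 and that of the noncoding transcripts 0.0017 CPM per kb. These cannot be set against the Hox median above, which covers the 12 tested genes alone. It leaves out the 26 Hox members too low to test.

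**Figure D5:**
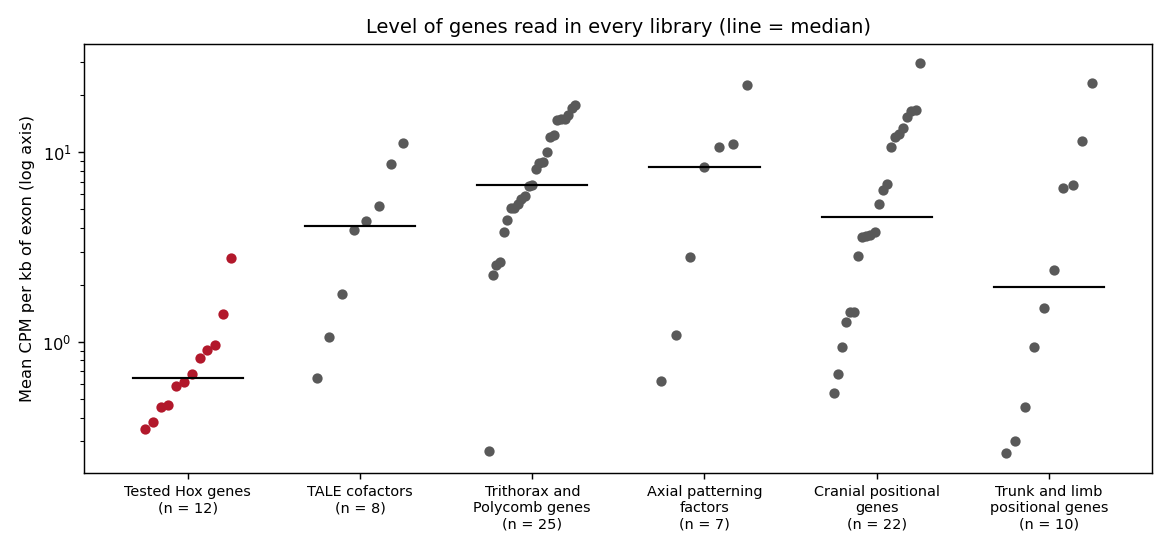
Mean level over 9 libraries in CPM per kb of exon (log axis) of the tested Hox genes (red) and of the members of 5 lists that were read in every library (grey, each point a gene, line the median of the points shown). The 12 Hox points lie between 0.346 and 2.79, and the TALE cofactors, chromatin regulators, axial factors and cranial genes are centred above them. Genes missing from some libraries are not drawn.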

How the data were processed

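RNA of 5 IRE1KO and 4 WT libraries was analysed from 1 table of raw counts per gene that the authors deposited, whole numbers with no normalization. Poly-A RNA was made into directional libraries in 1 batch, per the labels' protocols, and, per the submitters' processing notes, STAR, limma and mm10 were used, with no versions. How reads were counted, on which annotation release and with what strand option is not given in the sources used here.

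Counts were fitted in R 4.3.3 with edgeR 4.0.16 (filterByExpr, which kept 13712 of 25860 genes, TMM scaling, robust quasi-likelihood test, genotype the sole term), with Benjamini-Hochberg adjustment over all tested genes at 0.05. DESeq2 1.42.0 and limma 3.58.1 were alternatives, beside RLE scaling, no filter, leaving out each library, a replicate block and summed libraries. CPM values in the text are counts scaled to the library total (18784636 to 22028075), without TMM factors, which were 0.987 to 1.03. Lengths and positions came from GENCODE M21, where Hoxd4 was found by symbol and not by its identifier. Tables and figures were made in Python 3.11.15. The steps were tested on simulated counts.

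Of the Hox genes 1, and of the lists 4 genes, are not reported here and were left out of all counts and sums over members and lists, but not of the fit. The Hox members and the lists were chosen with earlier results of these data known. Members read in every library are given with all values, others by range, and of each list the members that passed, or otherwise the 2 with the smallest p. The floor of 3 counts covers counting error only. Each ± SD is the spread between libraries, and each ± SE comes from the edgeR fit, which includes variation between libraries. The groups' replicate numbers (1 to 4) did not pair the libraries: the correlations of same-numbered libraries were 0.169, -0.115, -0.206 and 0.462.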

Additional observations from a re-analysis of the deposited data

Results flagged for a closer look

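In 6 cases a value lay far from the other libraries of its group, by Dixon's test at the 95% level over 34 sets of libraries (chance gives about 1 in 20). Of these, 5 are IRE1KO library 2, all of the Hoxd cluster. Hoxd8 was at 12.8 CPM there, with the next IRE1KO library at 8.22 CPM. Hoxd3 was at 5.35 CPM, with the next at 2.61, Hoxd4 at 3.69 CPM, with the next at 1.80, and Hoxd9 at 2.02 CPM, with the next at 1.16. The sum over the Hoxd cluster was 24.1 CPM in that library, with the next at 13.3 CPM. The other was Hoxd9 in WT library 1, at 1.72 CPM, with the next WT library at 0.415 CPM. Hoxd3 and Hoxd4 share exon bases and the sum contains the single genes, so these values are not separate from each other. The same IRE1KO library had the lowest chondrocyte marker sum, 698 CPM, against 1253 to 1394 CPM in the other IRE1KO libraries; its part in the Hoxd levels was not tested.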

How the results depend on the processing

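The count of Hox genes that passed was 0 of 12 over 9 libraries and stayed 0 under RLE scaling, no filter on low counts, DESeq2, limma voom, the replicate block, summed IRE1KO libraries 3 and 5, and 8 of the 9 fits without 1 library; without WT library 1 it was 1, Hoxd9, so the range was 0 to 1. Over all genes 87 passed. The count was also 87 under RLE scaling, but 45 with no filter, 568 by DESeq2, 16 by limma voom, and 2 to 1192 without 1 library. With IRE1KO libraries 3 and 5 summed, the IRE1KO pair that differed least, it was 10. That alternative was chosen after seeing the data. The replicate numbers did not pair the libraries (2 of 4 IRE1KO and 2 of 4 WT libraries correlated best with their own number). With them as a replicate block on libraries 1 to 4, 0 genes passed in edgeR (1594 at an unadjusted p under 0.05), against 3 (1816 unadjusted) for the same libraries without the pairing term; unadjusted counts were 2263 in DESeq2 and 2193 in limma voom. Hox genes detected in every library numbered 12, 11 at a minimum of 3 reads and 9 at a minimum of 10, and 12 to 14 without 1 library (14 without IRE1KO library 4). Fitted directions reversed in 4 cases, all for genes that never passed: Hoxb3 to -0.0051 without IRE1KO library 4 and to -0.11 without WT library 3, Hoxb2 to -0.070 without WT library 3, and Hoxc13 to -0.11 without WT library 4 (log2 fold changes). Without 1 library these genes ranged from -0.11 to 0.44 (Hoxb3), -0.070 to 0.53 (Hoxb2) and -0.11 to 0.72 (Hoxc13). The cause was not tested. Of 352 values of single genes under the alternatives, 317 kept their direction and side of the threshold, 9 newly passed and 22 no longer did, 11 each for Dlx2 and Meox1. Depth limits the members with few reads: 3 counts are 0.136 to 0.160 CPM in a single library and 0.0167 CPM over all 9, so a gene without reads in any library may still be expressed below 0.0167 CPM.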
